A study of Mus musculus with 8 samples.

Results

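Mouse bone marrow-derived macrophages were stimulated through 2 different Toll-like receptors, and the comparison described here sets the library made after MALP2 against the library made after CpG. MALP2 is a bacterial lipopeptide recognised at the cell surface by TLR2 together with TLR6, and CpG is unmethylated DNA recognised by TLR9 inside endosomes. All genes whose estimate was marked reliable (status OK) in the tables of both agents were members, 36388 of the 36806 genes in each table. Of these, 12133 reached at least 1 FPKM (fragments per kilobase of transcript, scaled to the number of mapped fragments) in either library and were compared.

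The macrophages were grown from C57BL/6 bone marrow in medium conditioned by L929 cells and were stimulated on day 7 of differentiation. MALP2 was given at 1 ng/ml and CpG at 100 nM, each for 4 h, and an untreated culture served both agents. The other libraries of the series were made after 4 h of IFNg (100 ng/ml), IL4 (10 ng/ml), TNFa (10 ng/ml), TGFb1 (1 ng/ml) or IL1b (10 ng/ml). Polyadenylated RNA was sequenced, with 1 library in each of the 8 groups, so no difference below has a replicate check and no p-value is given. Each agent was given at 1 dose, and the doses are in different units, so the receptor and the strength of the stimulus cannot be told apart. In bulk RNA, fewer cells of a type and less RNA per cell cannot be told apart.

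Both receptors signal through the adaptor MyD88 and the kinases of the IRAK family to NF-kB and the MAP kinases, which switch on inflammatory cytokines and chemokines. TLR2 does so mainly from the plasma membrane with the bridging adaptor TIRAP, whereas TLR9 is carried to endosomes by UNC93B1 and in some cells also drives interferon genes through IRF factors. In macrophages, IL-12p40 (the product of Il12b) drives T helper and natural killer cell responses, and IL-10 restrains the macrophage itself through STAT3.

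The untreated macrophages and both stimulated cultures carried the genes of the labelled cell type. Csf1r, the receptor for the growth factor that maintains macrophages, stood at 1439 FPKM untreated, 1271 after MALP2 and 1107 after CpG. Cd68, a lysosomal glycoprotein of phagocytes, stood at 1945, 1587 and 1459 FPKM in the same order, and Adgre1, which encodes F4/80, at 816, 908 and 773 FPKM. Both agents gave a Toll-like receptor response: Csf3, the granulocyte growth factor G-CSF, was at 19.1 FPKM after MALP2 and 11.7 after CpG, against 0.0118 untreated and at most 0.278 in the other 5 libraries.

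The 2 agents left the macrophages in closely similar states. Of the genes compared, 94.2% differed by less than 1.5-fold, and the median difference of MALP2 minus CpG was 0.02 on the log2(FPKM + 1) scale, which is used for all differences below. A gene was counted as different when that difference reached 2-fold. By this rule 88 genes (0.725% of those compared) were higher after MALP2 and 140 (1.15%) were lower, 228 (1.88%) in all. Against the untreated library, which both share, MALP2 had 1212 genes 2-fold higher (9.53%) and 1491 lower (11.7%), and CpG had 1205 higher (9.44%) and 1426 lower (11.2%). Among the 28 pairs of libraries in the series the MALP2 and CpG pair had the smallest share of genes 2-fold apart. The next was TNFa with IL1b, at 2.92%.

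The tables also give lower and upper confidence bounds for each level, and these are the error available here. The bounds come from a single library and cover no difference between cultures. For genes at 5 FPKM or more the bounds lay a median of 54.0% to either side of the level after MALP2 and 53.2% after CpG, so that a difference near 2-fold usually had overlapping bounds. Bounds of the 2 agents were apart for 52 genes (0.429%), of which 45 were lower after MALP2 and 7 were higher. Among genes past 2-fold, 28 (0.231%) were lower after MALP2 with bounds apart and 2 (0.0165%) were higher with bounds apart. The smallest steps between low FPKM values were 1.32 times as large in the MALP2 library as in the CpG library, so the MALP2 library was the shallower. The number of reads itself is unknown.

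The directions differed in their protein-coding genes, while genes that were non-coding or had no biotype were numerous in both. Many of the latter were snoRNA, snRNA, miRNA or pseudogene entries with a lower bound of 0 in the higher library, so their levels were poorly measured. Of the 88 genes higher after MALP2, 81 were non-coding or had no biotype, and 39 were listed at 0 in the CpG library. Of the 140 genes lower after MALP2, 69 were non-coding or had no biotype, and 59 were listed at 0 in the MALP2 library. Among the 9860 protein-coding genes compared, 7 (0.071%) were higher after MALP2 and 71 (0.72%) were lower, a share of 8.97% higher among the coding genes past 2-fold, against 38.6% among all genes past 2-fold. Of the 28 genes past 2-fold that were lower after MALP2 with bounds apart, 27 were protein-coding.

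**Figure D1:**
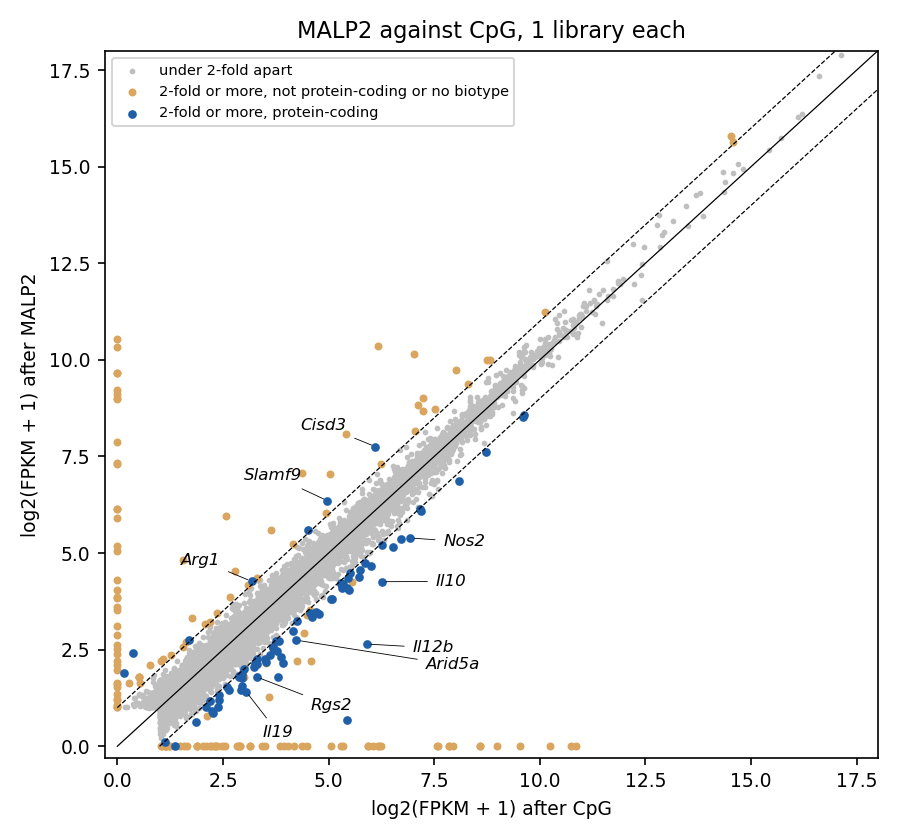
Each point is one gene, with its level after CpG on the horizontal axis and after MALP2 on the vertical axis, both as log2(FPKM + 1), and dashed lines mark 2-fold. Most points lie on the diagonal, with 94.2% within 1.5-fold. The labelled genes with bounds apart all lie below it, led by Il12b, and the labelled genes above it have overlapping bounds.

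Among genes lower after MALP2 with bounds apart, the 3 furthest apart were the cytokine genes Il12b, Il10 and Il19 of the IL12 and IL10 families. Il12b, which encodes the p40 chain shared by IL-12 and IL-23, stood at 0.104 FPKM untreated, 5.26 (bounds 1.82 to 8.70) after MALP2 and 58.8 (23.4 to 94.2) after CpG. In the other libraries Il12b was at 1.15 FPKM after TNFa, 0.462 after IL1b, 1.28 after IFNg, 0.0401 after IL4 and 0.103 after TGFb1. Both Toll-like receptor ligands were thus above every other library, and the CpG level exceeded the MALP2 level 9.56-fold on the log2(FPKM + 1) scale, a difference of -3.26. In the mm9 assembly used for the tables Il12b lies at chr11:44213565-44227535.

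Il10, the main anti-inflammatory cytokine of macrophages (chr1:132916422-132921551 in mm9), stood at 2.02 FPKM untreated, 18.1 (6.92 to 29.4) after MALP2 and 75.4 (30.2 to 121) after CpG. It was at 0.474 FPKM after TGFb1 and between 1.42 and 2.49 in the remaining 4 libraries. CpG gave 3.99 times the Il10 level of MALP2 on the log2(FPKM + 1) scale, with bounds apart. Il19, an IL-10 family cytokine whose gene is a neighbour of Il10 (chr1:132829235-132836650), stood at 0.0353 FPKM untreated, 1.66 (0.860 to 2.47) after MALP2 and 7.27 (4.20 to 10.3) after CpG. In the other 5 libraries Il19 was at most 0.105 FPKM, and the difference between the agents was -1.63 with bounds apart.

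Most other members of these families were under 2-fold apart. Il6, an acute inflammatory cytokine, was at 8.66 FPKM after MALP2 and 8.56 after CpG, with a log2 difference of 0.01, from 0.0326 untreated. Ebi3, a chain of IL-27 and IL-35, was at 108 and 97.8 FPKM, and Osm, which encodes oncostatin M, at 8.38 and 7.94 FPKM. Il27, the partner of Ebi3 in IL-27, was the fourth member past 2-fold, at 4.84 FPKM after MALP2 (1.47 to 8.21) and 11.9 after CpG (4.31 to 19.5), a log2 difference of -1.14 with overlapping bounds. The partners of p40 were below 1 FPKM after both agents, Il12a at 0.0867 and 0.0145 FPKM and Il23a at 0.303 and 0.215 FPKM. Of the 8 members of the IL12, IL10 and IL6 families compared, 4 were 2-fold lower after MALP2 and 0 were higher. Over all genes compared, 1.15% were lower and 0.725% higher. The median of the 8 was -0.70, against 0.02 over all genes compared. The remaining 6 listed members were below 1 FPKM in both libraries, and the median depended on them: it was -0.03 over all 14 members and -1.14 with a floor of 5 FPKM.

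**Figure D2:**
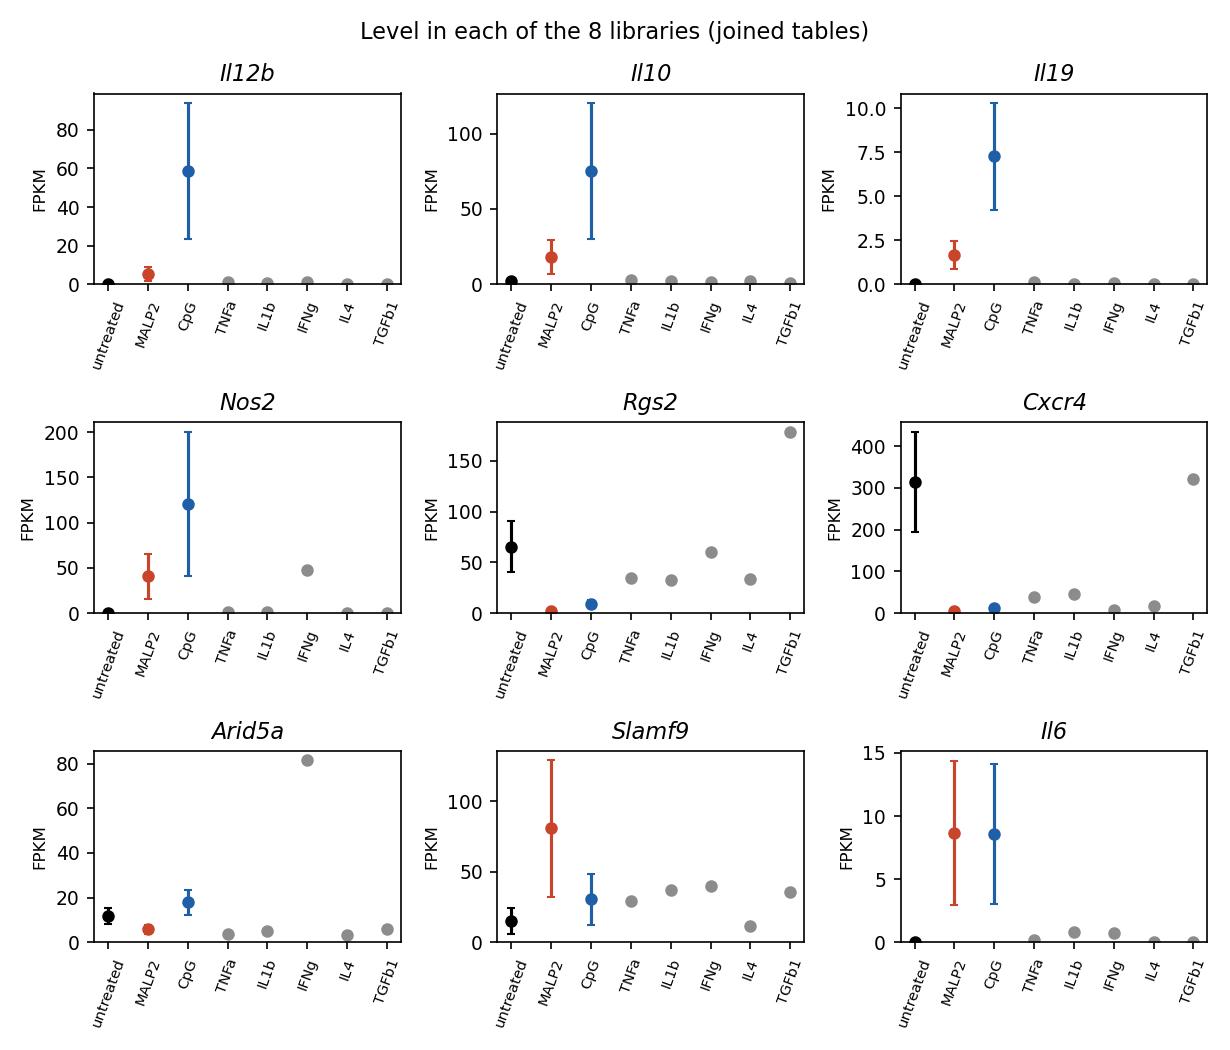
Levels in FPKM of 9 genes in all 8 libraries, with one panel per gene and, for untreated, MALP2 and CpG, the confidence bounds deposited by the authors as bars. Il12b, Il10, Il19, Nos2, Rgs2, Cxcr4 and Arid5a are lower after MALP2 than after CpG (for Il12b, 5.26 against 58.8 FPKM), Slamf9 is higher, and Il6 is level at 8.66 and 8.56 FPKM.

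The sequence just before the start sites of these genes is shown because several of the genes that differed are textbook targets of NF-kB, interferon or cAMP signalling. For 3 of the genes above and below, the 250 bases upstream of the RefSeq start were taken from RefSeq on GRCm38.p6. Capitals mark every match, on either strand, to the patterns that follow. The kappaB motif was GGG, then A or G, any 2 bases, 2 bases that are each C or T, and CC. The interferon-stimulated response element (ISRE) was GAAA, any 2 bases and GAAA. The others were the TGACG core of the cAMP response element (CRE) and the AP-1 motif TGANTCA. Il12b (chr11:44399813-44400062, plus strand) held no match to these exact patterns in this window, and sites with other letters were not sought. Il19 (chr1:130940116-130940365, minus strand) held a kappaB motif from 77 to 68 bases and an ISRE from 107 to 98 bases upstream of the start. Rgs2 (chr1:144004150-144004399, minus strand) held TGACG from 67 to 63 bases upstream and, on the other strand, from 185 to 181 bases upstream.
Il12b: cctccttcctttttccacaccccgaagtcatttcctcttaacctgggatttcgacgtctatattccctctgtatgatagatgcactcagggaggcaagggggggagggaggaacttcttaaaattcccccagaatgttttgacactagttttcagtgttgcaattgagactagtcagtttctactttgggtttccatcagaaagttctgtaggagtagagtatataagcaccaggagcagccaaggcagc
Il19: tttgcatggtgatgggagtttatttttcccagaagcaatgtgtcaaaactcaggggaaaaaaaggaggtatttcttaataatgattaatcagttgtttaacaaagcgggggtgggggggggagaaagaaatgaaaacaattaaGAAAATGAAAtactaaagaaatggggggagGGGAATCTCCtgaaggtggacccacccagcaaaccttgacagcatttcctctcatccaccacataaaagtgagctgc
Rgs2: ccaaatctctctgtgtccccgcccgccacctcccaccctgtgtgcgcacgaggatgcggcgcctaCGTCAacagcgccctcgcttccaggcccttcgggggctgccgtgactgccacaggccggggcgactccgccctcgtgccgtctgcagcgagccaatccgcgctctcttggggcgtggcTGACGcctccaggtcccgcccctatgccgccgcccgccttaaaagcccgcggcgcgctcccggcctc
The same window held a kappaB motif in 7.25% of 32851 RefSeq promoters, the ISRE in 2.98%, TGACG in 17.8% and the AP-1 motif in 6.75%. TGACG can overlap the AP-1 motif, and a match is a match of letters only.

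Rgs2, an inhibitor of G protein signalling that shortens Gq and Gs responses, differed in a different way, because both agents left it far under the untreated level. Rgs2 (chr1:145846468-145851291 in mm9) stood at 65.4 FPKM untreated, 2.46 (1.25 to 3.67) after MALP2 and 8.83 (4.96 to 12.7) after CpG. In the other libraries Rgs2 was at 35 FPKM after TNFa, 32.2 after IL1b, 60.0 after IFNg, 33.3 after IL4 and 179 after TGFb1. The MALP2 and CpG libraries were the lowest of the 8 for Rgs2, and MALP2 was lower than CpG by a log2 difference of -1.51 with bounds apart. Of the 8 RGS proteins compared, Rgs2 alone passed 2-fold, against 1.88% of all genes compared, and the median of the 8 was 0.02.

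Among genes that answer to cAMP and CREB, 17 were compared, of which 2 were 2-fold lower after MALP2 and 0 were higher. The shares over all genes compared were 1.15% lower and 0.725% higher. The median of the list was -0.47, or -0.14 with no floor on the level. TGACG lay in 8 of the 15 promoters of the listed genes that matched the RefSeq table, against 17.8% of all promoters. The share varied between lists. It was 14 of 20 for AP-1, EGR and NR4A early response genes, 10 of 17 for the MHC class I pathway and 0 of 17 for the prostaglandin pathway. The medians of those lists were 0.09, -0.01 and 0.01. The listed genes were chosen as known cAMP targets, so the share describes the list. The 2 genes past 2-fold were Rgs2 and Nfil3, a basic leucine zipper repressor also under IL-10 control, at 17.3 FPKM after MALP2 and 38.2 after CpG. Crem, the CREB family member that encodes the repressor ICER, was at 6.13 FPKM (4.46 to 7.79) after MALP2 and 11.8 (8.21 to 15.4) after CpG, under 2-fold but with bounds apart. Crem stood at 8.68 FPKM untreated, so its 2 levels lay to either side of the untreated one, each by less than 2-fold. Ptgs2, the inducible cyclooxygenase, was at 91.5 and 166 FPKM, and Dusp1, a MAP kinase phosphatase, at 71.7 and 137 FPKM, both with overlapping bounds.

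Genes known to respond to IL-10 and STAT3 were mostly lower after MALP2 than after CpG. Whether Il10 plays a part in this was not tested. Of 16 compared, 3 were 2-fold lower after MALP2, 13 lay below 0 and the median was -0.38. Among all genes compared, 1.15% were 2-fold lower and 46.4% lay below 0. Arid5a, an RNA-binding protein that stabilises cytokine messages, stood at 11.7 FPKM untreated, 5.70 (3.73 to 7.67) after MALP2 and 17.9 (12.2 to 23.5) after CpG, a difference of -1.50 with bounds apart. Il4ra, the IL-4 receptor chain, was at 380 and 788 FPKM, against 104 untreated. After IFNg, where Il10 was at 1.42 FPKM, Arid5a was at 81.5 FPKM and Il4ra at 882 FPKM, both above their CpG levels. After IL4, TNFa, TGFb1 and IL1b, Arid5a was between 3.02 and 6.05 FPKM. Il4ra was at 297 FPKM after IL4 and between 89.4 and 139 FPKM after TNFa, TGFb1 and IL1b. Etv3, a transcriptional repressor induced by IL-10, was at 31.7 FPKM (23.7 to 39.8) after MALP2 and 61.7 (45.3 to 78.1) after CpG, with a difference of -0.94. Stat3 was at 119 and 154 FPKM and Il10ra, the IL-10 binding receptor chain, at 67.9 and 61.3 FPKM, both under 2-fold.

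Interferon-stimulated genes lay mostly on the CpG side. Of 36 type I interferon response genes compared, 7 were 2-fold lower after MALP2 and 0 were higher, 35 lay below 0, and the median was -0.65. Among all genes compared, 1.15% were 2-fold lower after MALP2 than after CpG, 0.725% were higher and 46.4% lay below 0. Against the untreated library the median of the list was -0.28 after MALP2 and 0.15 after CpG. After MALP2, 7 of the 36 were 2-fold below untreated and 0 above, and after CpG 1 was below and 4 above. Over all genes, 11.7% were 2-fold lower than untreated after MALP2 and 9.44% higher than untreated after CpG. The summed level was 2459 FPKM untreated, 1906 after MALP2 and 2608 after CpG. In the other libraries it ran from 825 FPKM after IL4 to 8607 after IFNg. Ifnb1, which encodes interferon beta, was below 1 FPKM in both libraries, at 0.222 FPKM after MALP2 and 0.193 after CpG.

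Rsad2, which encodes the antiviral enzyme viperin, stood at 27.8 FPKM untreated, 16.2 (7.09 to 25.4) after MALP2 and 42.4 (18.2 to 66.6) after CpG, a difference of -1.33. The MALP2 level was thus under the untreated one and the CpG level over it, each by less than 2-fold. Rsad2 stood at 68.8 FPKM after TNFa, 36.2 after IL1b, 115 after IFNg, 3.84 after IL4 and 17.2 after TGFb1. Cmpk2, a mitochondrial nucleotide kinase whose gene is a neighbour of Rsad2, gave 28.4, 12.9 and 32.6 FPKM in the order untreated, MALP2 and CpG. Ifit1, an antiviral RNA-binding protein, gave 31.9, 25.7 and 56.8 FPKM, and Ifit2 of the same family gave 29.8, 6.97 and 16.8 FPKM. Ifit2 was therefore under its untreated level after both agents, and more so after MALP2.

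Ifi203, a member of the p200 family of interferon-inducible nuclear proteins, gave 20.7 FPKM untreated, 22.8 (16.4 to 29.2) after MALP2 and 52.5 (39.6 to 65.4) after CpG. It was the list member past 2-fold whose bounds were apart. Bounds were also apart, under 2-fold, for Oasl1 at 14.2 and 27.7 FPKM, for Mx1 at 19.3 and 33.0 FPKM and for Stat2 at 30.4 and 49.6 FPKM. These encode an inhibitor of Irf7 translation, an antiviral GTPase and the interferon signal transducer, in that order. Isg15, a ubiquitin-like modifier, was at 144 and 191 FPKM, and Bst2, which encodes tetherin, was the list member above 0, at 416 FPKM after MALP2 and 399 after CpG.

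Sequences of 3 interferon-responsive promoters are printed because the ISRE is the DNA element through which interferon signals reach many of these genes. The ISRE letters lay in the 250-base window of 12 of the 26 type I interferon response genes that matched the RefSeq table, against 2.98% of all promoters. The genes of the list were chosen as known interferon targets, so the share describes the list. Ifit1 (chr19:34640639-34640888, plus strand) held 2 matches, Gbp2b (chr3:142594597-142594846, plus strand) held 1, and Rsad2 (chr12:26456453-26456702, minus strand) held 1 together with TGACG and an AP-1 motif. Capitals mark the matches as above.
Ifit1: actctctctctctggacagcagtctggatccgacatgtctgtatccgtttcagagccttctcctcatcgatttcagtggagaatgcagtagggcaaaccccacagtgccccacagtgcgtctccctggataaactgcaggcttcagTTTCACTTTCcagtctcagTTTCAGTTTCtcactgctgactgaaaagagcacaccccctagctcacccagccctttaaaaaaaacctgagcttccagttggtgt
Gbp2b: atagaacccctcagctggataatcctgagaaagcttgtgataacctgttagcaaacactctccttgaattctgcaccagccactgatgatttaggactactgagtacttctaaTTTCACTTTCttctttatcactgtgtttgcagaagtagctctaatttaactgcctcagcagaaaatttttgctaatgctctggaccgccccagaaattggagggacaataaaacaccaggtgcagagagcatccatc
Rsad2: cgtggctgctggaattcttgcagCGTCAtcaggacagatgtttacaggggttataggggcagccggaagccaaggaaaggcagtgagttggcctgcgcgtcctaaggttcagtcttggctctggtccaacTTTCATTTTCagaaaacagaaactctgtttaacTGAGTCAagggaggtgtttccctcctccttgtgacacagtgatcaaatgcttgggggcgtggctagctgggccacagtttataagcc
The matches in Ifit1 ended 95 and 76 bases upstream of the start, that in Gbp2b ended 128 bases upstream and that in Rsad2 ended 111 bases upstream.

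**Figure D3:**
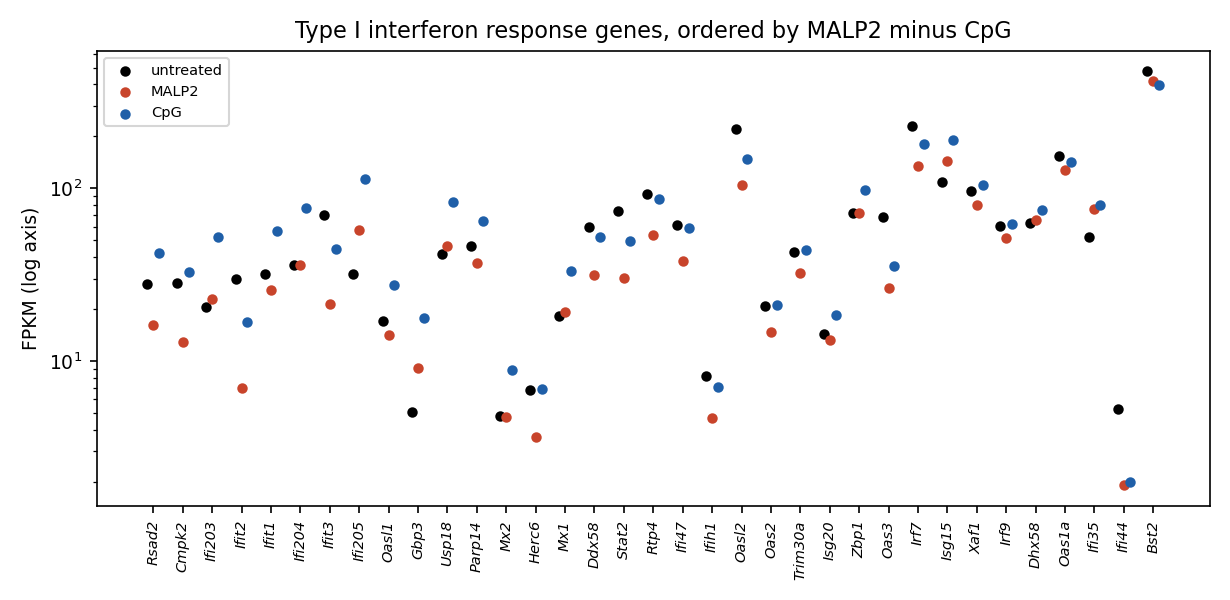
Levels in FPKM, on a log axis, of type I interferon response genes in the untreated (black), MALP2 (red) and CpG (blue) libraries, ordered by MALP2 minus CpG, with 35 of the 36 genes of the list drawn. The CpG point is above the MALP2 point in every gene drawn but Bst2, and Rsad2 is the furthest apart at 16.2 against 42.4 FPKM.

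Genes known as IFNg-activated macrophage genes leaned likewise, although neither agent is IFNg. Of 19 compared, 3 were 2-fold lower after MALP2, 17 lay below 0, and the median was -0.81, or -0.49 with no floor. The shares among all genes compared were 1.15% lower and 46.4% below 0. Nos2, the inducible nitric oxide synthase, stood at 0.0530 FPKM untreated, 40.9 (16.1 to 65.8) after MALP2 and 121 (41.1 to 201) after CpG, a difference of -1.54 with overlapping bounds. Nos2 was at 47.9 FPKM after IFNg and at most 1.07 FPKM in the other 4 libraries. Cd274, which encodes the checkpoint ligand PD-L1, was at 20.0 FPKM after MALP2 and 51.5 after CpG, from 8.76 untreated. Tgtp2, an interferon-inducible GTPase, was at 10.3 FPKM untreated, 3.55 (1.62 to 5.48) after MALP2 and 10.4 (5.51 to 15.4) after CpG, so that the CpG level was close to the untreated one. Gbp2b, a guanylate-binding GTPase outside that list, stood at 3.87, 15.4 (9.48 to 21.3) and 43.6 (27.2 to 60.0) FPKM in the order untreated, MALP2 and CpG, with bounds apart, against 690 FPKM after IFNg.

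The receptors for the 2 ligands and their adaptors that were compared were under 2-fold apart. Tlr2 was at 401 FPKM after MALP2 and 466 after CpG, against 70.6 untreated. Tlr6, the partner of TLR2 for MALP2, was at 13.7 and 13.4 FPKM, and Tlr1, the alternative partner, at 65.4 and 57.2 FPKM. Cd14, a co-receptor that hands lipopeptides to TLR2, was at 2282 and 1942 FPKM, and Cd36, a scavenger receptor that also assists, at 31.3 and 34.3 FPKM. Tlr9 itself was lower than in untreated cells after both agents, at 11.0 FPKM after MALP2 (4.35 to 17.7) and 7.22 after CpG (2.85 to 11.6), against 50.8 untreated. Myd88 was at 159 and 162 FPKM, from 72.8 untreated. Unc93b1 did not have status OK and was not compared. Of the 7 genes of the TLR2 side, the 10 of the TLR9 side and the 21 downstream adaptors and kinases compared, 0 were 2-fold apart. Over all genes compared the share was 1.88%, so a count of 0 in lists this short is near that share.

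NF-kB target genes were under 2-fold apart, with most on the CpG side. Of 26 compared, 0 were 2-fold apart, near the 1.88% over all genes compared. Of the 26, 22 lay below 0 and 4 above, against 46.4% and 53.6% of all genes compared, and the median was -0.13. Against untreated, 21 were 2-fold higher after MALP2 and 22 after CpG, against 9.53% and 9.44% of all genes. Genes that damp Toll-like receptor signalling leaned toward CpG without passing 2-fold. Of 20 compared, 18 lay below 0 and the median was -0.37. Socs1, an inhibitor of cytokine receptor kinases, was the furthest apart of them, at 10.6 and 22 FPKM, from 0.847 untreated. Of 15 other inflammatory cytokines compared, 2 were 2-fold lower after MALP2, against 1.15% of all genes compared. They were Edn1 (endothelin-1) at 9.16 and 23.6 FPKM and Il15 at 1.51 and 4.29 FPKM. The median of those 15 was -0.18. Il1b, of the same list, was at 3018 FPKM after MALP2 and 3078 after CpG from 3.87 untreated, and Tnf at 655 and 489 FPKM from 6.99.

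Chemokines gave differences in both directions. Of the 5 neutrophil chemokines compared 0 were 2-fold apart, and the median was 0.62, higher after MALP2, or 0.30 with no floor. Cxcl2 was at 528 FPKM (196 to 860) after MALP2 and 326 (116 to 537) after CpG, Cxcl1 at 149 and 96.9 FPKM, and Cxcl3, by contrast, at 80.3 and 117 FPKM, each with overlapping bounds. Pf4, platelet factor 4, was at 152 and 91.3 FPKM. Of 16 chemokines for monocytes and T cells compared, 1 was 2-fold lower after MALP2, against 1.15% of all genes compared. It was Ccl5, at 364 FPKM against 781 after CpG, and the median of the list was 0.02. Ccl24, an eosinophil chemokine, was at 11.9 FPKM after MALP2 and 5.55 after CpG, and Ccl3 was at 2350 and 2528 FPKM. Cxcr4, the receptor for the retention chemokine CXCL12, was at 315 FPKM untreated, 4.16 (2.27 to 6.05) after MALP2 and 11.3 (6.58 to 16) after CpG. Like Rgs2, it was strongly under the untreated level after both agents and lowest after MALP2. Unlike Rgs2, it was also low after IFNg, at 7.61 FPKM, and after IL4, at 16.5 FPKM. Cxcr4 was at 38.1 FPKM after TNFa, 44.8 after IL1b and 322 after TGFb1. Cx3cr1, the fractalkine receptor, was at 78.9 FPKM after MALP2 and 40.0 after CpG, a difference of 0.96.

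**Figure D4:**
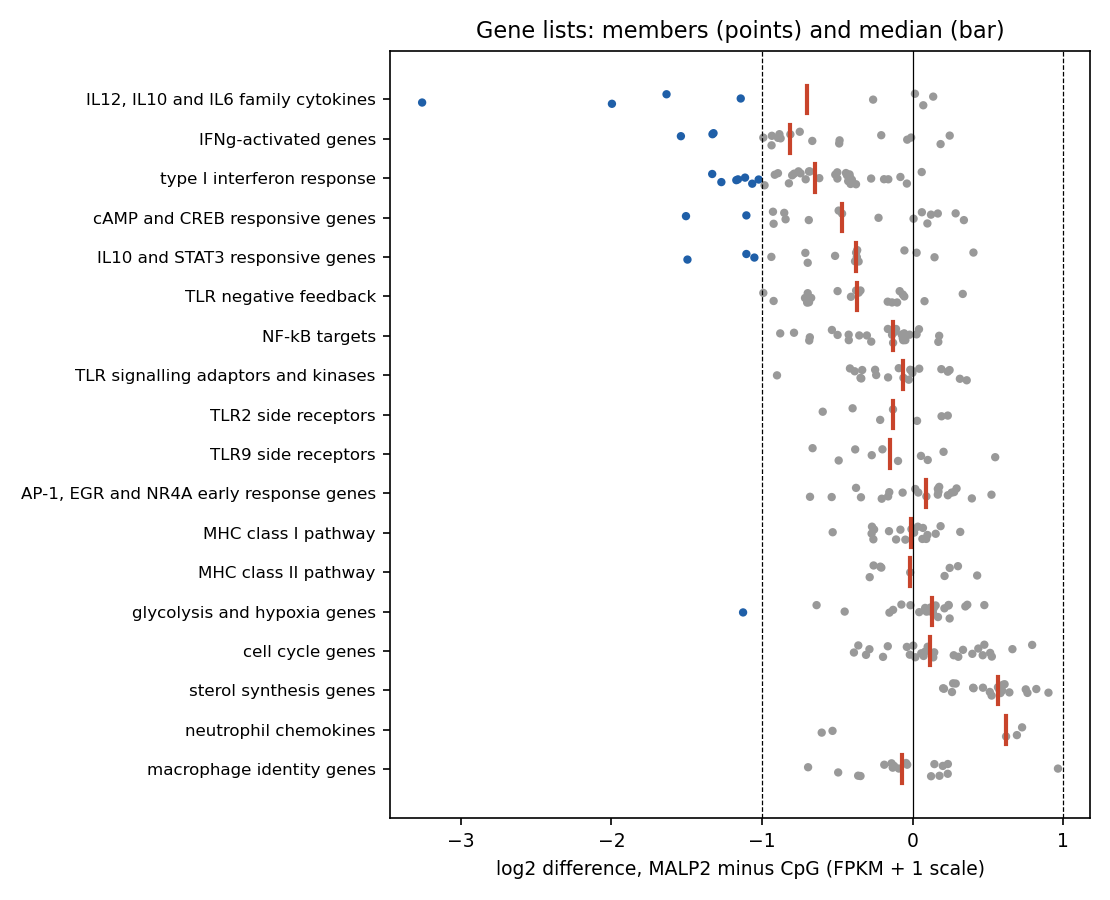
For each of the main gene lists, the points are its members' MALP2 minus CpG differences on the log2(FPKM + 1) scale and the bar is the median, with dashed lines at 2-fold. The interferon lists and the IL12, IL10 and IL6 families lie below 0, at medians of -0.65, -0.81 and -0.70, and sterol synthesis lies above it at 0.57.

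Sterol synthesis was the list with every compared member above 0. All 21 genes compared were higher after MALP2, by 0.20 to 0.90, with a median of 0.57, although 0 reached 2-fold and 0 had bounds apart. Fdft1, squalene synthase, did not have status OK and was not compared. Across all genes compared, 53.6% lay above 0. Against untreated cells the median of the list was 0.67 after MALP2 and 0.10 after CpG. The summed level of the list was 617 FPKM untreated, 1015 after MALP2 and 715 after CpG. It was 1320 FPKM after IL1b and 1144 after TGFb1, both above MALP2, and 949 after TNFa, 700 after IL4 and 507 after IFNg. These sums take in Fdft1, which was listed at 0 in the untreated, MALP2 and CpG libraries. Its part in the sums of the other libraries was not examined, so their order against MALP2 may depend on it. Lss, lanosterol synthase, was at 26.3 FPKM untreated, 37.5 (21.9 to 53.1) after MALP2 and 19.6 (11.6 to 27.7) after CpG. Mvd, an enzyme of the mevalonate steps, was at 32.7, 34.0 and 18.8 FPKM in the same order. Abcg1, a cholesterol efflux pump and LXR target, was at 97.1 FPKM untreated, 4.28 after MALP2 and 9.44 after CpG, just inside 2-fold at -0.98. The 14 LXR targets compared had a median of 0.00 with 0 past 2-fold.

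Metabolic and secreted genes with the larger differences were mostly lower after MALP2. Pfkfb3, which makes the activator of phosphofructokinase and so speeds glycolysis, was at 22.8 FPKM untreated, 194 (144 to 244) after MALP2 and 424 (293 to 555) after CpG, with bounds apart. It was the 1 gene past 2-fold of 24 glycolysis and hypoxia genes, whose median was 0.13, against 1.88% past 2-fold among all genes compared. Mmp13, a collagenase, was at 1.55 FPKM untreated, 115 after MALP2 and 272 after CpG. It was among the 2 genes past 2-fold, both lower after MALP2, of 19 matrix protease and coagulation genes, whose median was -0.20. The share lower among all genes compared was 1.15%. Arg1 and Arg2, the cytosolic and mitochondrial arginases, went opposite ways. Arg1 was at 0.0337 FPKM untreated, 18.3 (7.05 to 29.5) after MALP2 and 8.06 (2.95 to 13.2) after CpG, a difference of 1.09, against 1734 FPKM after IL4. Arg2 was at 2.54 FPKM after MALP2 and 6.33 after CpG, a difference of -1.05, and the bounds overlapped for both arginases. Nos2, which competes with the arginases for arginine, was lower after MALP2 as given above.

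**Figure D5:**
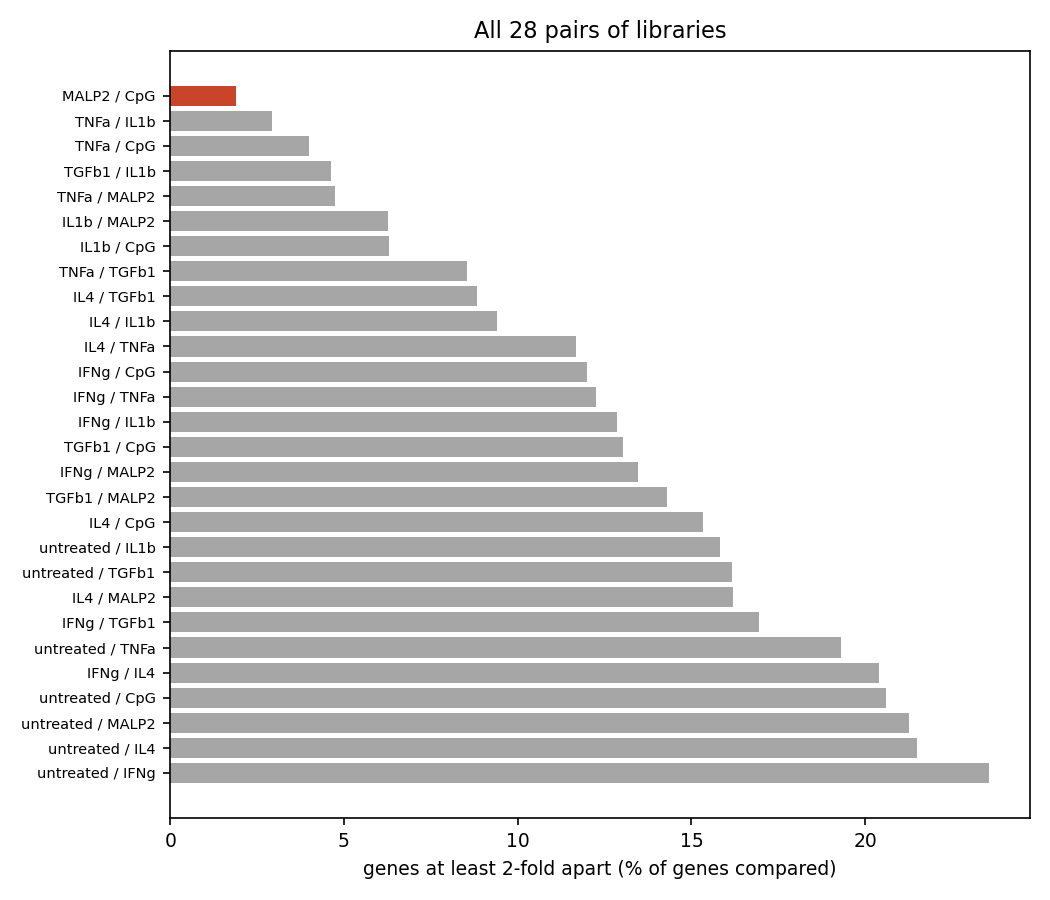
Share of genes at least 2-fold apart, in percent, as bars, for each of the 28 pairs of libraries, with 1 library per group. The pair of MALP2 and CpG is the lowest at 1.88%, and untreated against IFNg is the highest at 23.6%.

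Signalling and transcription genes made up much of the rest of the genes with bounds apart. Tle3, a Groucho family corepressor, stood at 48.6 FPKM untreated, 34.7 (28.9 to 40.4) after MALP2 and 91.1 (76.4 to 106) after CpG. Bcor, a BCL6 corepressor, stood at 5.95, 4.54 (3.08 to 6.00) and 12.7 (9.10 to 16.4) FPKM in the same order. For both genes the MALP2 level lay under the untreated level and the CpG level lay over it, each by less than 2-fold. Cytip, a regulator of cytohesins and cell adhesion, was at 8.87, 1.96 (1.09 to 2.83) and 6.67 (4.61 to 8.74) FPKM. Cyth3, a cytohesin, was at 24.7, 24.5 (13.2 to 35.7) and 63.0 (36.0 to 89.9) FPKM, so MALP2 left it at its untreated level. Cd300lf, an inhibitory surface receptor, was at 47.4, 9.65 (7.33 to 12.0) and 26.3 (21.5 to 31.1) FPKM, and Eps8, an actin regulator, was at 24.4, 1.73 (0.900 to 2.56) and 5.29 (3.07 to 7.51) FPKM. Cav1, the coat protein of caveolae, was at 0.812, 40.4 (28.1 to 52.6) and 104 (71.8 to 136) FPKM. Slfn8, a schlafen gene, was at 17.3, 13.1 (9.64 to 16.5) and 32.3 (24.6 to 39.9) FPKM.

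The protein-coding genes higher after MALP2 numbered 7 and are named in full, 6 of them after their values were seen. Hpn, which encodes the membrane protease hepsin, was the 1 gene that the naming rule gave in this direction. It stood at 4.80 FPKM untreated, 5.70 (3.68 to 7.72) after MALP2 and 2.23 (1.23 to 3.23) after CpG. Its MALP2 level was the nearer to the untreated one, and both lay within 2-fold of it. Rasal1, a Ras GTPase-activating protein, was at 0.445, 2.71 (1.13 to 4.29) and 0.122 (0.0277 to 0.216) FPKM, the other gene of this direction with bounds apart. Slamf9, a SLAM family surface receptor, was at 15.2, 80.8 (32.3 to 129) and 30.4 (12.2 to 48.7) FPKM, and its MALP2 level was the highest of the 8 libraries. Cisd3, a mitochondrial iron-sulfur protein, was at 88.4, 215 (39.1 to 390) and 68.0 (12.1 to 124) FPKM with overlapping bounds. E2f6, a repressor of the E2F family, was at 47.2 FPKM after MALP2 and 21.7 after CpG, Fgf13 at 4.36 and 0.287 FPKM with a lower bound of 0 after MALP2, and Arg1 was given above.

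Most of the largest differences were poorly measured. In both directions the largest belonged to entries that were non-coding or had no biotype. These mostly had a lower bound of 0 in the higher library and were listed at 0 in the other. Lmbr1, a membrane protein gene, was at 0.598 FPKM after MALP2 and 42.3 after CpG, but the bounds of the CpG value ran from 0 to 161 FPKM. It was also at 59.4 FPKM untreated and 33.8 after TGFb1, and at most 0.896 in the other 4 libraries, and it is named here after its values were seen. There were 4 genes 2-fold above untreated after one agent and 2-fold below it after the other, and all 4 had a lower bound of 0 in both agents.

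The lists for antigen presentation, stress and macrophage identity had medians near 0. Their counts of 0 past 2-fold lie near the 1.88% over all genes compared. Of 19 class I genes and 9 class II genes compared 0 were 2-fold apart, with medians of -0.01 and -0.02. Of 17 heat shock and ATF4 stress genes compared, 0 passed 2-fold and the median was -0.01. The 18 macrophage identity genes compared had a median of -0.07 and 0 past 2-fold. Lyz2, a lysozyme gene of the same list, did not have status OK in either table and was not compared; it was listed at 17530 FPKM after MALP2 and at 0 in the untreated and CpG libraries. The 28 cell cycle genes had a median of 0.12 and 0 past 2-fold.

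Markers of other marrow cells were measured because B cells and plasmacytoid dendritic cells also carry TLR9. The summed level of the 13 B and plasma cell markers found was 72.2 FPKM after MALP2 and 63.1 after CpG, with 8 of them below 1 FPKM in both. Of the members, Ighm, the IgM heavy chain, was at 122 FPKM untreated, 21.9 after MALP2 and 14.8 after CpG, and Blnk, an adaptor of B cell receptor signalling, at 102, 44.5 and 42.8 FPKM. Against the untreated library 4 of the 5 compared were 2-fold lower after each agent, against 11.7% (MALP2) and 11.2% (CpG) of all genes. The fall was not particular to these agents. In the other 5 libraries Ighm was at 19.5 to 29.1 FPKM and Blnk at 13.6 to 43.5 FPKM, also under the untreated level. The B cell receptor chain Cd79b was at 7.68, 2.14 and 1.55 FPKM. Of the markers below 1 FPKM, Cd79a was at 0.0491 FPKM after MALP2 and listed at 0 after CpG, and Ms4a1 was listed at 0 after MALP2 and at 0.0445 FPKM after CpG. The 12 plasmacytoid dendritic cell markers summed to 441 and 434 FPKM, nearly all of it Bst2, a gene that macrophages also express, while Siglech was at 0.517 and 0.596 FPKM and Ccr9 at 0.237 and 0.364 FPKM. Conventional dendritic cell markers summed to 8.37 and 9.87 FPKM, T and NK cell markers to 6.89 and 9.41, neutrophil markers to 523 and 460, mast cell and basophil markers to 4.27 and 6.63, and stromal markers to 110 and 114. The part of these cells in the differences was not tested. Of the markers compared, 0 were 2-fold apart, near the 1.88% over all genes compared. Markers below 1 FPKM in both libraries were not compared. These were 8 of 12 plasmacytoid and 9 of 10 conventional dendritic cell markers. They also took in 14 of 16 T and NK cell markers and 9 of 10 mast cell and basophil markers.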

How the data were processed

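The authors deposited gene tables of FPKM with confidence bounds and a status per gene, one table per agent with its own untreated column, per the file headers. TopHat 1.3.1, Cufflinks 1.2.1 and Cuffdiff 1.2.1 and the mm9 assembly are named in the submitters' processing notes. The level of the bounds is not given in the sources used here. The CpG table was scaled so that the untreated columns agreed. Differences were computed as log2(FPKM + 1) over genes with status OK and at least 1 FPKM in either library, with Python 3.11.15, pandas 2.3.3 and numpy 2.4.6, and the code was tested on simulated data. The pseudocount of 1 understates the fold of low genes. Depth cannot be given, because the tables hold no counts. Symbols were matched for 31840 of 36806 identifiers. Genes were named by a rule: up to 15 per direction past 2-fold with bounds apart and 5 FPKM or more, the receptors, and the leading members of each of 43 lists. Other genes were added after their values were seen, and a few that the rule gave are not reported here. The members and lists were chosen with earlier results of these data known. Where symbols have near-identical copies (Gbp, Ifi200, Slfn and Tgtp families), the assignment of reads between copies is uncertain. The alternatives were another pseudocount, another floor or none, no scaling factor, centring on the median gene, and protein-coding genes alone.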

Additional observations from a re-analysis of the deposited data

How the results depend on the processing

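With a pseudocount of 0.1 FPKM, 137 genes were higher and 217 lower after MALP2, in place of 88 and 140. Among protein-coding genes alone 7 were higher and 71 lower, which moved the share higher among genes past 2-fold from 38.6% to 8.97%. With a floor of 5 FPKM in either library, 1 gene past 2-fold with bounds apart was higher after MALP2, in place of 2, and 22 were lower, in place of 28. Centred on the median gene 84 were higher and 148 lower, and with no floor or no scaling factor the counts stayed at 88 and 140. No difference past 2-fold among the genes named by the rule changed sign under these alternatives. The medians of 7 lists, all within 0.06 of 0, did. That of monocyte and T cell chemokines went from 0.02 to -0.02 with no floor and -0.01 with centring, and that of LXR targets from 0.00 to -0.06 with the floor of 5 FPKM. Centring subtracted 0.03, more than the difference of 0.01 for Il6. Abcg1 passed 2-fold with the smaller pseudocount (-1.12) and with centring (-1.01), Socs1 likewise (-1.05 and -1.02), and Vcam1 with the smaller pseudocount (-1.03). No paired analysis was possible because each group holds 1 library, and for the same reason no library could be left out. Depth per library is unknown, and the MALP2 library was the shallower.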
